A study of Mus musculus with 24 samples.

Results

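Genes whose products assemble chromatin at replication, or write, bind and erase marks on DNA and histones, were compared in mouse heart ventricle. The hearts came from newborn and young mice, wild type (WT) or knockout (KO) for the executioner caspases. The set was chosen by symbol and holds 37 genes in 6 roles: maintenance and de novo DNA methylation, Polycomb, histone chaperones, H3K9 methylation with heterochromatin protein 1 (HP1), high mobility group (HMG) proteins with lamin B1, and histone deacetylases with chromatin remodellers. Of these, 33 were measured among the 18819 genes tested. Ssrp1, Suv39h1 and Suv39h2 had no row of a single gene symbol in the table used here, and the 2 rows of Rbbp4 also name Sync, so these 4 genes are not analysed here. RNA of the ventricles of 24 C57/Bl6 mice was hybridised to whole-transcript Affymetrix arrays, 6 in each of 4 groups: WT and KO hearts of newborn and of young mice. The labels place the newborn hearts at postnatal day 1 to 2 and the young hearts at day 30, and the methods give slightly different ages. KO mice lacked caspase-7 in every tissue and carried floxed caspase-3 alleles cut by an Nkx2.5::Cre driven from a cardiac enhancer, so non-myocytes such as fibroblasts kept caspase-3, and per the methods some caspase-3 protein remained in newborn KO hearts. Which alleles WT mice carried is not given in the sources used here. The genotype of each array rests on its label. Each value is a log2 signal, 1 unit of which is a 2-fold change, and each array was a separate heart per the methods, with litter and sex not given per array.

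At each round of DNA replication, the chaperone CAF-1, whose subunits are encoded by Chaf1a and Chaf1b, and the Asf1 proteins place new histones on both daughter strands, while Uhrf1 recognises hemimethylated DNA and brings in Dnmt1 to copy the methylation pattern. Polycomb repressive complex 2 (Ezh1 or Ezh2 with Suz12 and Eed) methylates histone H3 at K27, a mark that Cbx proteins of Polycomb repressive complex 1 bind, and HP1 proteins bind the H3K9 mark made by Setdb1 and the Suv39h enzymes. Heart muscle cells divide before and shortly after birth and then largely leave the cell cycle, so genes coupled to replication are known to decline in the ventricle over this period.

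Array medians lay between 4.24 and 4.50, and arrays of a group correlated with each other at a mean of 0.985 to 0.993. In every group the mean signal of 11 measured cardiomyocyte markers lay between 11.8 and 12.2, and that of 3 measured lymphocyte markers between 3.17 and 3.98. Some newborn arrays stood apart from their groups over the chromatin genes. The newborn WT array numbered 4 had the lowest value of its group for 25 of 33 genes, and the newborn KO array numbered 4 the highest of its group for 21 of 33. The newborn KO array numbered 6 was the lowest of its group for 23 of 33. The WT array numbered 4 was nearer the mean of the KO group than that of the other WT arrays for 29 of 33 genes, and the KO array numbered 4 nearer the WT mean for 31 of 33, against 3 to 13 of 33 for the other newborn arrays. Both are used here under their labels, and whether the labels of these 2 arrays were exchanged was not tested, which bears on every newborn KO minus WT value. Values are also given without both of them.

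Between newborn and young WT hearts, chromatin genes mostly fell. In limma's test over all genes, at a Benjamini-Hochberg adjusted p under 0.05, 27 of 33 measured genes differed, where 47% of all genes tested did. Of these, 25 of 33 were lower in young hearts, where 27.9% of all genes tested were lower, and 2 of 33 were higher, where 19.2% of all genes tested were higher. The median log2 difference was -0.76 over the 33 genes and 0.0024 over all genes. The 6 young and 6 newborn WT arrays did not overlap for 22 genes that were lower, against 18.2% of all genes, and for 1 gene that was higher, against 11.5%. The largest falls were those of Chaf1b, Lmnb1, Uhrf1, Asf1b, Hmgb2 and Hells, each at least 3.01-fold. Of the 33 genes, Dnmt3b, Hmgb3, Eed, Smarca5, Smarcd3 and Smarca4 did not pass. With arrays centred on their medians, which moved the median of all genes to 0.26, the chromatin genes had a median of -0.50, and 21 were lower and 5 higher, where 15.9% of all genes tested were lower and 52.3% higher. With both newborn arrays numbered 4 left out, 27 were lower and 2 higher, where 27.3% of all genes tested were lower and 18% higher. Over all genes tested, 40.8% of the calls were higher as deposited, 76.7% after centring and 50.5% after quantile normalization. In bulk ventricle, fewer cells of a type and less RNA per cell cannot be told apart.

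Among the DNA methylation genes, 4 of 5 fell. Uhrf1, which reads hemimethylated DNA, had lowest, median and highest log2 signals of 5.91, 6.95 and 7.61 in newborn and 4.41, 4.80 and 5.05 in young WT hearts. Every young WT array lay below every newborn WT array. The log2 difference was -2.20 (SE 0.25, n = 6 each, limma adjusted p = 5.30e-08), a 4.61-fold fall. Hells, a remodelling ATPase needed for DNA methylation, ran at 4.65, 5.61 and 5.87 in newborn and 3.78, 3.91 and 3.95 in young WT hearts (lowest, median, highest). The spread among the young arrays was narrow and the groups did not overlap, with a difference of -1.59 (SE 0.18, limma adjusted p = 5.95e-08). These young signals of Hells lay below the median signal of every array (4.24 to 4.50). Whether low signal narrowed their spread or limited the size of the fall was not tested. Dnmt1, the maintenance methyltransferase, fell by 1.07 (SE 0.13, limma adjusted p = 1.25e-07). Of the de novo methyltransferases, Dnmt3a fell by 0.28 (SE 0.068), with no overlap between the ages, while Dnmt3b differed by -0.20 (SE 0.093, limma adjusted p = 0.0867). After median centring Dnmt3a no longer passed and the difference of Dnmt3b turned to 0.061.

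The Polycomb genes did not move together: 3 of 6 fell, 2 rose and Eed did not pass. Ezh2, the H3K27 methyltransferase typical of dividing cells, had lowest, median and highest signals of 9.01, 9.28 and 9.34 in newborn and 7.49, 7.70 and 8.004 in young WT hearts, and it fell by 1.52 (SE 0.098, limma adjusted p = 3.56e-12). Its paralog Ezh1, the form known from non-dividing cells, went from 7.76, 8.03 and 8.16 to 8.11, 8.22 and 8.35, a rise of 0.24 (SE 0.083, limma adjusted p = 0.0175). The Ezh2 arrays of both ages were far apart, whereas those of Ezh1 overlapped, and without the newborn WT array numbered 6 the Ezh1 difference was 0.20 and did not pass (limma adjusted p = 0.0557). The Polycomb readers Cbx2 and Cbx7 also went in opposite directions. Cbx7 had signals of 4.84, 5.05 and 5.22 in newborn and 5.66, 6.38 and 6.76 in young WT hearts, and all young arrays lay above all newborn arrays, with a rise of 1.31 (SE 0.13, limma adjusted p = 4.98e-09), or 2.48-fold. Cbx2 fell by 0.96 (SE 0.11) and the PRC2 subunit Suz12 fell by 0.59 (SE 0.055), both without overlap. The difference between 2 paralogs of a pair was not tested.

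All 6 measured histone chaperones fell in WT hearts. Chaf1b, the middle subunit of CAF-1, had the largest fall of the 33 genes, from 6.001, 7.17 and 7.42 to 4.26, 4.71 and 5.10 (lowest, median, highest), or -2.29 (SE 0.24, limma adjusted p = 1.53e-08). Asf1b, the replication-linked Asf1, went from 7.64, 8.54 and 8.97 to 6.03, 6.34 and 6.55, a difference of -2.18 (SE 0.23, limma adjusted p = 1.50e-08). In both genes the lowest newborn WT value was that of the array numbered 4, and it still lay above every young WT value. Asf1a, which also serves histone exchange outside replication, fell by 0.30 (SE 0.088, limma adjusted p = 0.00612), with overlapping groups, and lost its call after median centring. Chaf1a fell by 1.28, Nasp, a carrier of free H3 and H4, fell by 1.27 and Rbbp7, a histone-binding subunit shared by several complexes, fell by 0.35. Rbbp7 also lost its call after centring.

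The 5 measured genes of H3K9 methylation and HP1 all fell in WT hearts, with a median of -0.76 against -1.28 for the chaperones. Trim28, the scaffold that recruits Setdb1, fell by 0.92 (SE 0.068) and Setdb1, the methyltransferase itself, fell by 0.46 (SE 0.073). Among the HP1 genes, Cbx3 (HP1 gamma) fell by 0.90, Cbx5 (HP1 alpha) fell by 0.76 and Cbx1 (HP1 beta) fell by 0.39. The groups overlapped for Cbx1 alone of these 5, and Cbx1 lost its call after median centring. The 6 rows named Cbx3 gave age differences between -0.91 and -0.78.

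Of the HMG genes and lamin B1, 4 of 5 fell in WT hearts. Lmnb1, the B-type lamin whose loss is known from cells that stop dividing, went from 7.42, 7.98 and 8.32 to 5.25, 5.65 and 5.95 (lowest, median, highest), a difference of -2.28 (SE 0.18, limma adjusted p = 1.48e-10). Hmgb2, a DNA-bending protein of proliferating cells, went from 6.87, 7.86 and 8.04 to 5.39, 5.65 and 6.21, a difference of -1.99 (SE 0.19, limma adjusted p = 4.75e-09). Neither gene had overlapping age groups. The Hmgb2 paralog Hmgb1 fell by 0.48 (SE 0.083) with overlap, and Hmgb3 differed by -0.15 (SE 0.10, limma adjusted p = 0.230), a sign that median centring turned to 0.10. The array has 23 rows named Hmgb1, all with age differences below 0, from -0.67 to -0.15, and which genomic copy each row reads was not tested. Hmga2, an HMG protein of embryonic tissue, fell by 0.94 (SE 0.10).

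The deacetylases and remodellers divided by subunit. Hdac1 fell by 1.13 (SE 0.081) and Hdac2 fell by 0.58 (SE 0.075), both deacetylases without overlap between the ages. Smarcc1, a core subunit of the BAF remodelling complex, fell by 1.01 (SE 0.078). Smarca4, the BAF ATPase, differed by -0.022 (SE 0.059), the ISWI ATPase Smarca5 differed by -0.040 (SE 0.086) and Smarcd3, a BAF subunit enriched in heart and muscle, differed by 0.028 (SE 0.068). None of these 3 passed. Median centring turned the signs of Smarca4 (0.24) and Smarca5 (0.22), and Smarca4, Smarcd3 and Eed then passed as higher.

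**Figure D1:**
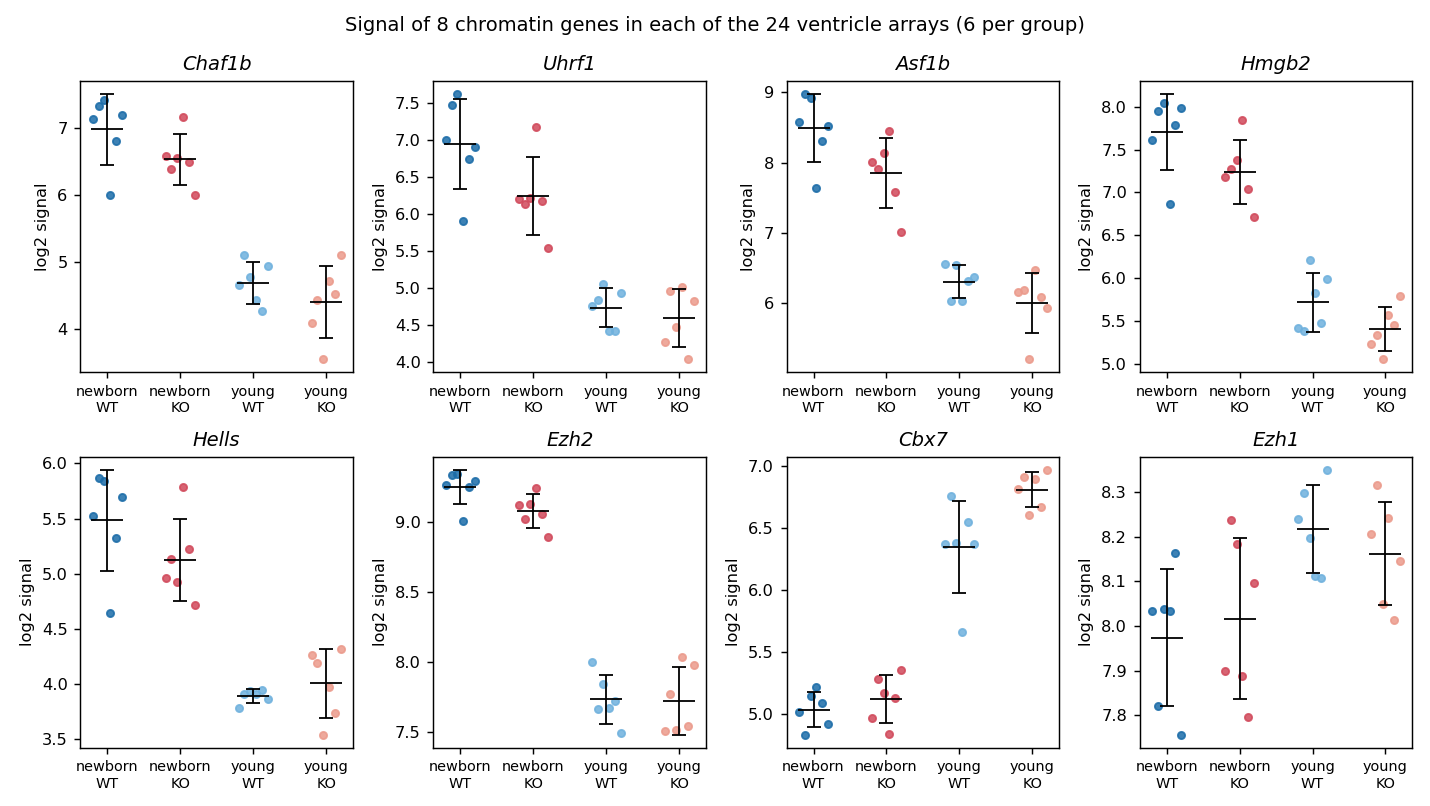
Log2 signal (vertical axis, 1 scale per gene) of 8 chromatin genes in the 24 arrays, by group (horizontal axis); points are single arrays, horizontal lines the group means and bars the standard deviation of 6 arrays. Chaf1b, Uhrf1, Asf1b, Hmgb2, Hells and Ezh2 were lower in every young WT array than in any newborn WT array, Cbx7 was higher, and the Ezh1 groups overlapped.

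KO hearts were compared between the ages in the same way. The means come from other arrays than those of the WT comparison, and both share 1 estimate of the spread from all 24 arrays. Of the 33 genes, 25 differed, where 59% of all genes tested did, and 23 were lower in young KO hearts, where 25% of all genes tested were lower, and 2 were higher, where 34% of all genes tested were higher. The median log2 difference was -0.64 over the 33 genes and 0.098 over all genes. All 23 genes that fell in KO hearts had also fallen in WT hearts, which is 100% of the KO falls and 92.0% of the WT falls. Over all genes tested these shares were 88.9% and 79.9%. Ezh1, Eed, Smarca4, Smarca5, Hmgb3 and Dnmt3b did not pass in KO hearts. Asf1a and Cbx1 were the 2 genes that fell in WT hearts and did not pass in KO hearts. Cbx7 rose in both genotypes, by 1.68 in KO hearts (SE 0.13, limma adjusted p = 7.73e-11), from 4.84, 5.15 and 5.36 to 6.61, 6.85 and 6.97 (lowest, median, highest). Ezh1, which rose in WT hearts, differed by 0.15 in KO hearts and did not pass (limma adjusted p = 0.131), but passed at 0.32 after median centring. Smarcd3 rose by 0.20 in KO hearts (SE 0.068, limma adjusted p = 0.0169) against 0.028 in WT hearts. It did not pass without the newborn KO array numbered 3 (0.16, limma adjusted p = 0.0537) or 6 (0.15, limma adjusted p = 0.0560). Hmgb1 likewise did not pass in KO hearts without the newborn array numbered 4 (-0.18, limma adjusted p = 0.0734) or the young array numbered 3 (-0.19, limma adjusted p = 0.0685). After median centring, Hmgb1 (-0.045, limma adjusted p = 0.650), Dnmt3a (-0.088, limma adjusted p = 0.317) and Rbbp7 (-0.087, limma adjusted p = 0.356) lost their KO calls. For 26 of 33 genes the KO change lay above the WT change, as it did for 13139 of all 18819 genes tested. The test of that difference called 0 of 33, where it called 0.0106% of all genes tested. With median centring, 20 genes were lower and 6 higher in KO hearts, where 16% of all genes tested were lower and 53.3% higher, and the share of higher calls over all genes went from 57.6% to 76.9%, or to 49.1% after quantile normalization.

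The 6 genes with the largest WT falls had differences of -2.14 to -1.12 in KO hearts, against -2.29 to -1.59 in WT hearts. Chaf1b went from 6.003, 6.53 and 7.17 in newborn to 3.55, 4.47 and 5.10 in young KO hearts (lowest, median, highest), a difference of -2.14 (SE 0.24). Lmnb1 went from 6.98, 7.44 and 7.93 to 4.65, 5.61 and 5.82, a difference of -1.94 (SE 0.18), and Asf1b from 7.01, 7.96 and 8.44 to 5.21, 6.12 and 6.47, a difference of -1.84 (SE 0.23). None of these 3 genes had overlapping ages. Hmgb2 fell by 1.83 (SE 0.19), Uhrf1 fell by 1.64 (SE 0.25), Ezh2 fell by 1.35 (SE 0.098) and Hells fell by 1.12 (SE 0.18). Chaf1a fell by 0.70 (SE 0.17, limma adjusted p = 0.00137), and its ages overlapped by a single young KO array. The newborn and young KO arrays did not overlap for 20 genes that fell, against 15.1% of all genes, and for 1 that rose, against 15.9%.

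**Figure D2:**
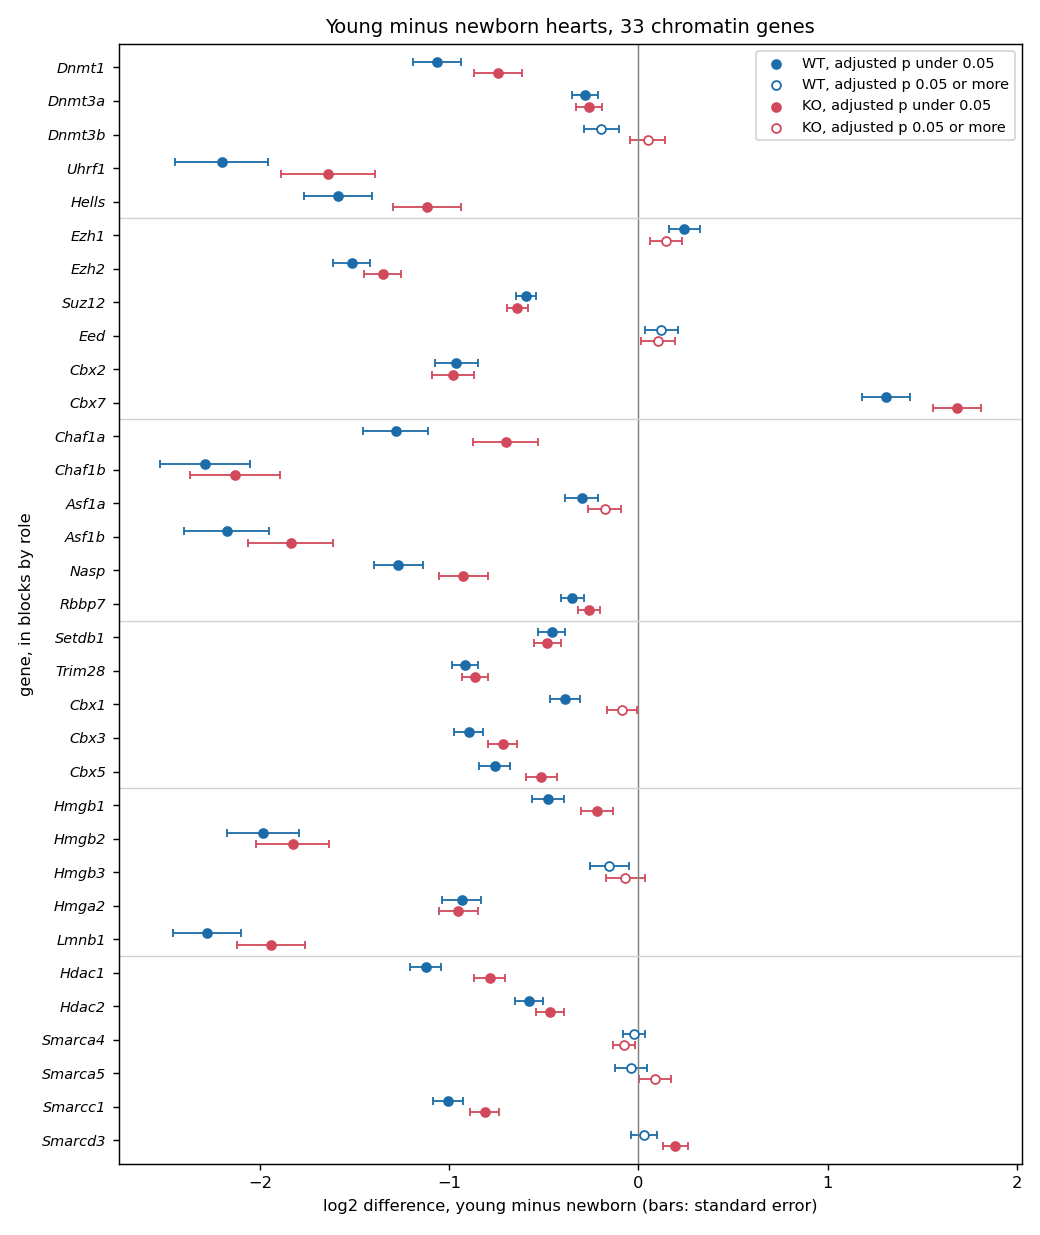
Log2 difference of young minus newborn hearts (horizontal axis) with its standard error for the 33 measured genes (vertical axis, in blocks by role), in WT and in KO hearts; filled points passed an adjusted p under 0.05. In WT hearts 25 genes lie below 0 and pass and 2 lie above and pass, and in KO hearts the counts are 23 and 2.

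Other markers moved with age as well. All 18 measured cell division markers fell in both genotypes, with a median of -2.48 in WT and -2.00 in KO hearts, and their mean log2 signal ran from 7.24 to 8.28 in newborn WT and from 5.37 to 6.10 in young WT hearts. In WT hearts, 6 of 8 fibroblast markers and 6 of 6 epicardial markers fell, and 6 of 6 macrophage and leukocyte markers rose. Cardiomyocyte markers had 7 of 11 higher and 2 lower, and endothelial markers 2 of 7 higher and 5 lower. The part of these shifts in the age differences of the chromatin genes was not tested.

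The rest of each pathway, taken from lists of genes outside the 37, was compared between newborn and young WT hearts, where 27.9% of all genes tested fell and 19.2% rose. Among the other histone chaperones, 13 of 18 fell and 0 rose, led by Mcm2 (-1.84), a replicative helicase subunit that carries histones, and Mms22l (-1.70) and Tonsl (-1.30), which form a complex at stalled forks. Of the other deacetylase complex genes, 14 of 16 fell and 1 rose, led by Chd3 (-0.92). Of the other DNA methylation genes, 7 of 10 fell and 1 rose, led by Zbtb33 (-0.77), which binds methylated DNA. Other Polycomb genes fell in 12 of 21 cases and rose in 3, led by Pcgf2 (-2.08) and Rnf2 (-1.30), both in Polycomb repressive complex 1. For the HMG and lamina genes outside the 37, 7 of 11 fell and 1 rose. Tmpo, a lamina-associated protein gene, fell the most (-1.55), and Lmna, the A-type lamin gene, was the one that rose (0.43). Of the other H3K9 methylation genes, 3 of 6 fell and 0 rose, led by Ehmt2 (-0.54). Other remodeller genes fell in 18 of 34 cases and rose in 3, with Smarca1 (-2.69) and Cecr2 (1.06) at the ends. Writers and erasers of active marks fell in 14 of 28 cases and rose in 4, from Kdm5b (-1.31), an H3K4 demethylase, to Kmt2d (0.58), an H3K4 methyltransferase.

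In KO hearts, where 25% of all genes tested fell and 34% rose, the same lists gave 11 of 18 other histone chaperones lower and 1 higher, 14 of 16 other deacetylase complex genes lower and 1 higher, and 6 of 10 other DNA methylation genes lower and 2 higher. Other Polycomb genes had 14 of 21 lower and 3 higher, and other H3K9 methylation genes 4 of 6 lower and 0 higher. The HMG and lamina genes had 3 of 11 lower and 1 higher, the remodellers 20 of 34 lower and 3 higher, and the writers and erasers of active marks 18 of 28 lower and 3 higher. Mcm2 (-1.40), Pcgf2 (-1.88), Tmpo (-1.18), Smarca1 (-2.50) and Kdm5b (-1.27) again had the largest falls of their lists.

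Because so many of these genes fell together, their promoters were searched for letters known from cell cycle genes. RefSeq windows of build GRCm38.p6, from 250 bases before to 50 after a gene's start, matched 30 of the 33 measured genes and 14749 of the 18819 genes tested. An E2F-type motif (TTTCCCGC, TTTGGCGC, TTTCGCGC or TTCCCGCC, on either strand, where TTTCCCGC and TTCCCGCC can overlap) was in 9 of 30, or 30.0%, against 5.7% of the genes tested with a window and 4.0% of all 27025 symbols with one. Of the 22 genes with a window that fell in WT hearts 9 held it, and of the 8 that did not fall 0 did. The 9 were Dnmt1, Uhrf1, Hells, Ezh2, Suz12, Chaf1a, Trim28, Cbx3 and Hmga2. A gene counted if any of its windows held the motif, and Dnmt1 held it in its window numbered 3 only. Of the 6 largest falls, Uhrf1 and Hells held it, Chaf1b, Asf1b and Hmgb2 did not, and Lmnb1 had no window. Over all genes tested, the motif was in 9.2% of those that fell in WT hearts and in 4.3% of those that did not. Of the other letter sets, a CHR-type motif (TTTGAA or TTCGAA) was in 30.0% against 19.0% of genes tested, the CCAAT box (CCAAT) in 53.3% against 41.9%, and the GC box (GGGCGG) in 86.7% against 53.4%. The windows of the measured genes had a median GC content of 66.7%, against 58.7% for the genes tested, and the share of matches at matched GC content was not tested.

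Promoters of 4 genes that fell and hold the motif, and of the 2 that rose and do not, are shown from 90 bases before to 30 bases after the start, each on the strand of its gene, with E2F-type letters in capitals. These promoters are examples picked by motif and direction. In the windows shown, Uhrf1 has a match at position -48, Chaf1a at -47, Hells at -62 and Ezh2 at 4. Here 1 is the first base of the gene and -1 the base before it. Another window of Uhrf1 holds a match at -185.
Uhrf1 promoter, chr17:56303247-56303366, plus strand: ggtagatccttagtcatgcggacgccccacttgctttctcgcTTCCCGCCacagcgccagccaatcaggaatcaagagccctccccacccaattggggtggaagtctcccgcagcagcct
Chaf1a promoter, chr17:56040326-56040445, plus strand: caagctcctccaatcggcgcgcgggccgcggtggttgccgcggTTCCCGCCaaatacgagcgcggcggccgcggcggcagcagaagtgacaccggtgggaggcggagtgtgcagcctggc
Hells promoter, chr19:38930900-38931019, plus strand: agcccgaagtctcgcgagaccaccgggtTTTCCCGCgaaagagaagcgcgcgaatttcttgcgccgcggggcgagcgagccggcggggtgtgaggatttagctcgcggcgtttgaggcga
Ezh2 promoter, chr6:47595001-47595120, minus strand: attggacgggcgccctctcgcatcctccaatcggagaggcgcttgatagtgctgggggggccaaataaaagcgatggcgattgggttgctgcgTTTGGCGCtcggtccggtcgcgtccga
Ezh1 promoter, chr11:101226434-101226553, minus strand: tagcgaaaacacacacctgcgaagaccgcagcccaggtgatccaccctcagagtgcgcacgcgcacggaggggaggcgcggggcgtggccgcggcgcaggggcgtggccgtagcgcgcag
Cbx7 promoter, chr15:79932617-79932736, minus strand: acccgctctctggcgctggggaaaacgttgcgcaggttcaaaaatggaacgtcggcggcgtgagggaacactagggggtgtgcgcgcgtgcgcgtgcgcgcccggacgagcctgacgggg
In Uhrf1, Chaf1a and Hells the letters lay before the start, and in Ezh2 just after it. A match is a string of letters and says nothing on whether a factor binds, and the absence of one in Ezh1 and Cbx7 holds for this window only.

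The genotype comparison in newborn hearts asks how expression shortly after birth differs between KO and WT hearts. At an adjusted p under 0.05, limma called 0 of 33 chromatin genes, as it called 0% of all genes tested. Of the 33 log2 differences 31 were below 0, where 12941 of all 18819 genes tested were below 0 as well. The median was -0.14 against -0.049 over all genes. After median centring 29 of 33 were below 0, and the median of all genes was -0.033. After quantile normalization 28 of 33 were below 0, and the median of all genes was -0.0055. At an unadjusted p under 0.05, 9 genes were lower and 0 higher, where 7.62% of all genes tested were lower and 1.45% higher. With 1 newborn array left out, the count in either direction was 19 without WT 4 and 16 without KO 4. It was 6 without WT 3, WT 6 or KO 6, and 7 to 10 without each of the other 7. The share of all genes at this level was not counted for these settings. The 9 with all arrays were Uhrf1, Asf1b, Chaf1a, Lmnb1, Hmgb2, Dnmt1, Dnmt3b, Hmgb1 and Smarcc1, with adjusted p between 0.387 and 0.547. No gene of the 33 had KO arrays all on one side of the WT arrays, where 0.436% of all genes tested had them all below and 0.0531% all above. By role, the median difference was -0.35 for DNA methylation, -0.34 for histone chaperones, -0.20 for HMG proteins and lamin B1, -0.12 for deacetylases and remodellers, -0.11 for H3K9 methylation and HP1, and -0.043 for Polycomb genes.

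Chaf1a, the large subunit of CAF-1, had the smallest p of the 33 in newborn hearts, with lowest, median and highest signals of 5.34, 6.01 and 6.32 in WT and 5.15, 5.32 and 6.10 in KO hearts. Its WT array numbered 4 sat among the KO arrays and its KO array numbered 4 among the WT arrays, and the difference was -0.54 (SE 0.17, limma adjusted p = 0.387). Uhrf1 ran at 5.91, 6.95 and 7.61 in WT and 5.54, 6.19 and 7.17 in KO hearts, a difference of -0.70 (SE 0.25, limma adjusted p = 0.411). For Asf1b the signals were 7.64, 8.54 and 8.97 in WT and 7.01, 7.96 and 8.44 in KO hearts, a difference of -0.64 (SE 0.23, limma adjusted p = 0.411). Both genes had the lowest WT value and the highest KO value in the arrays numbered 4, and the groups overlapped. Lmnb1 ran at 7.42, 7.98 and 8.32 in WT and 6.98, 7.44 and 7.93 in KO hearts, differing by -0.50 (SE 0.18, limma adjusted p = 0.414). Dnmt3b ran at 4.07, 4.32 and 4.57 and 3.99, 4.05 and 4.17, differing by -0.27 (SE 0.093, limma adjusted p = 0.411). The KO arrays of Dnmt3b were tightly grouped, and the WT array numbered 4 was the single WT array among them. All KO signals of Dnmt3b lay below the lowest array median (4.24), and whether low signal narrowed their spread was not tested. Hmgb2 (-0.46), Dnmt1 (-0.35), Hmgb1 (-0.18) and Smarcc1 (-0.16) completed the 9. The other 24 genes lay between -0.45 for Chaf1b and 0.086 for Cbx7.

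With both newborn arrays numbered 4 left out, 8 of 33 chromatin genes were called lower in newborn KO hearts and 0 higher, where 1.94% of all genes tested were lower and 0.622% higher. These 2 arrays are the lowest WT and the highest KO array for most of the 33 genes, so leaving them out widens the difference by construction, while the KO array numbered 6, often the lowest of its group, was kept. The count is therefore a description of 5 against 5 arrays chosen with earlier results of these data known, and is no test of the genotype. The 8 were Uhrf1 at -1.09, Asf1b at -0.93, Chaf1a at -0.80, Hmgb2 at -0.75, Lmnb1 at -0.70, Hells at -0.66, Dnmt1 at -0.54 and Hmgb1 at -0.30. Leaving out any 1 newborn array alone called 0 of 33.

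Cell division markers moved with these differences. The mean log2 signal of the 18 measured markers was 7.93 ± 0.39 (SD, n = 6) in newborn WT and 7.26 ± 0.53 (SD, n = 6) in newborn KO hearts (exact two-sided permutation test, p = 0.0390, adjusted p = 0.156 over 6 marker comparisons). All 18 differences were below 0, of which 0 passed an adjusted p under 0.05 in limma and 18 had an unadjusted p under 0.05, and 2 KO arrays lay below every WT array. The WT array numbered 4 had the lowest marker mean of its group, 7.24, and the KO array numbered 4 the highest of its group, 7.90. In a fit of the 12 newborn arrays with this mean as a covariate, the median difference of the 33 chromatin genes was -0.0078, with 15 above and 18 below 0, and 0 had an unadjusted p under 0.05. The covariate itself was lower in KO hearts and followed the arrays numbered 4, so this fit cannot separate genotype from cell division. The part of cell division in the genotype differences was not tested. Erythroid markers differed by -0.054 (3 of 6 measured, exact two-sided permutation p = 0.716) and atrial markers by 0.18 (exact two-sided permutation p = 0.587).

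**Figure D3:**
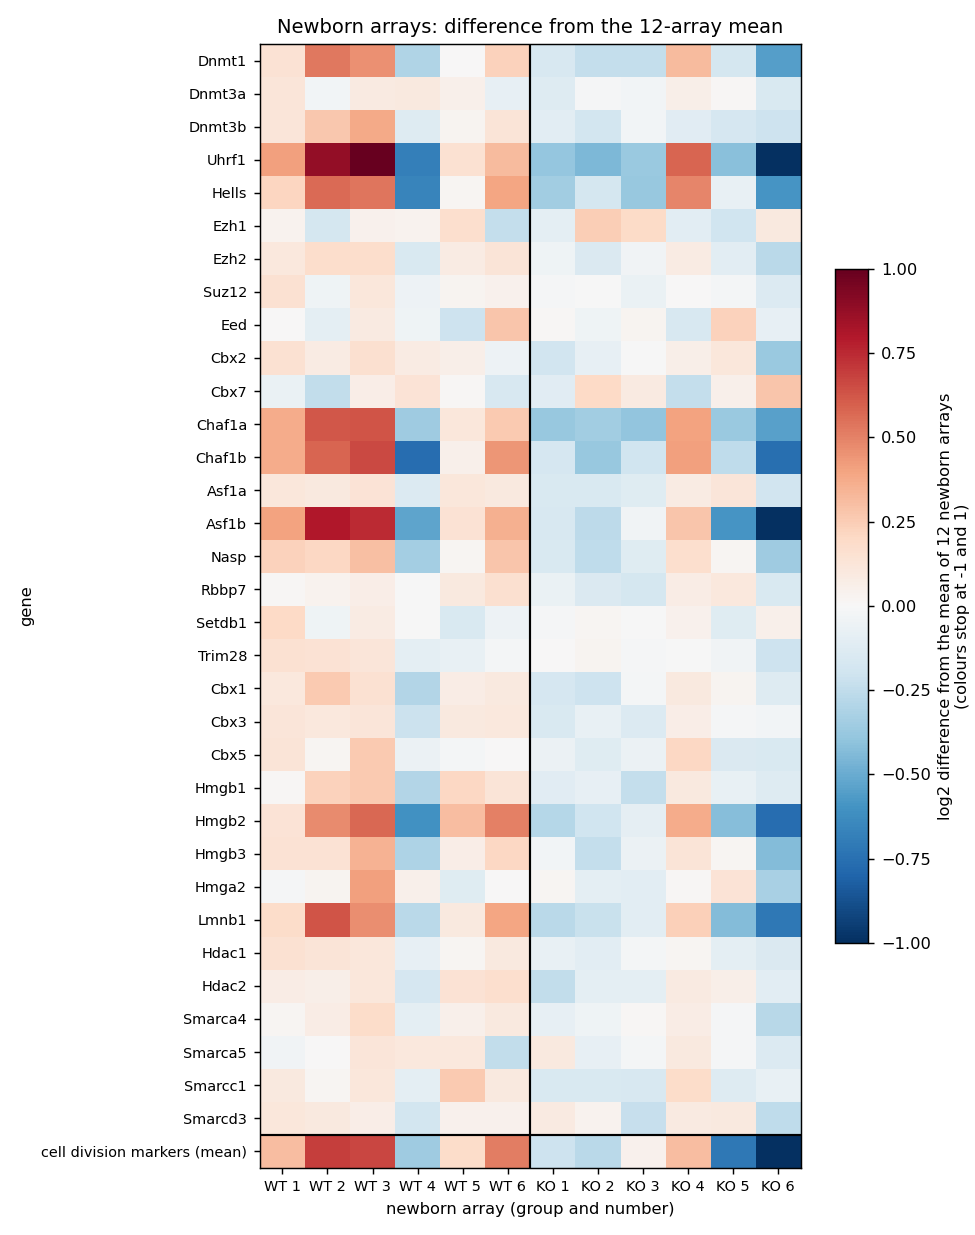
Difference of each newborn array (horizontal axis) from the mean of the 12 newborn arrays, in log2 units by colour, for the 33 measured genes and, in the bottom row, the mean of 18 cell division markers. The WT array numbered 4 is the lowest of its group for 25 genes, the KO array numbered 4 is the highest of its group for 21, and their marker means are 7.24 and 7.90.

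Outside the 37, limma called 0 genes of the 8 pathway lists between newborn genotypes. At an unadjusted p under 0.05, 5 of 11 other HMG and lamina genes, 3 of 18 other histone chaperones, 2 of 28 writers and erasers of active marks and 1 of 21 other Polycomb genes were lower and 0 higher, where 7.62% of all genes tested were lower. The other DNA methylation, H3K9 methylation, deacetylase complex and remodeller lists had 0 at that level.

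In young hearts, limma again called 0 of 33 chromatin genes between KO and WT, against 1.02% of all genes tested, 0.67% higher and 0.351% lower. The median log2 difference was -0.023 against 0.033 over all genes, with 12 above and 21 below 0. Of all 18819 genes tested, 11335 were above 0 and 7484 below. At an unadjusted p under 0.05, 3 genes were higher and 2 lower, where 10.4% of all genes tested were higher and 4.57% lower. Over all genes tested, 65.6% of the adjusted calls were higher as deposited, 41.3% after median centring and 41.5% after quantile normalization. The young KO arrays lay all on one side of the WT arrays for 0 of 33, where this held for 0.42% of all genes tested above and 0.404% below.

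Cbx7 came nearest to passing, with lowest, median and highest signals of 5.66, 6.38 and 6.76 in young WT and 6.61, 6.85 and 6.97 in young KO hearts. The WT array numbered 4 was far below the other WT arrays, and a single WT array reached into the KO range. The difference was 0.46 (SE 0.13, limma adjusted p = 0.0789). It passed at 0.41 after quantile normalization (limma adjusted p = 0.0412), without the young WT array numbered 2 at 0.54 (0.0156) and without the young KO array numbered 3 at 0.50 (0.0326). Without the low WT array numbered 4 it was 0.32 (0.131), and the alternatives tried gave adjusted p values of 0.0156 to 0.695.

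Of the other genes at an unadjusted p under 0.05, the deacetylase Hdac1 ran at 7.92, 8.21 and 8.41 in young WT and 8.04, 8.43 and 8.60 in young KO hearts, a difference of 0.20 (SE 0.081, limma adjusted p = 0.244). Its lowest KO array was the one numbered 3, and without it the difference was 0.27 (limma adjusted p = 0.0357, with a range of 0.0357 to 0.970 over all alternatives). Smarca4 ran at 9.25, 9.33 and 9.37 and 9.09, 9.15 and 9.27, a difference of -0.16 (SE 0.059, limma adjusted p = 0.179). For Smarca4, the KO array numbered 4 was the single KO array above the lowest WT array. Suz12 ran at 8.07, 8.18 and 8.27 in WT and 7.97, 8.01 and 8.19 in KO hearts, a difference of -0.13 (SE 0.055, limma adjusted p = 0.266). Cbx1 ran at 7.42, 7.52 and 7.74 and 7.56, 7.68 and 7.87, a difference of 0.17 (SE 0.081, limma adjusted p = 0.326), and its groups overlapped, as did those of Suz12. The 28 remaining genes lay between -0.31 and 0.13.

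**Figure D4:**
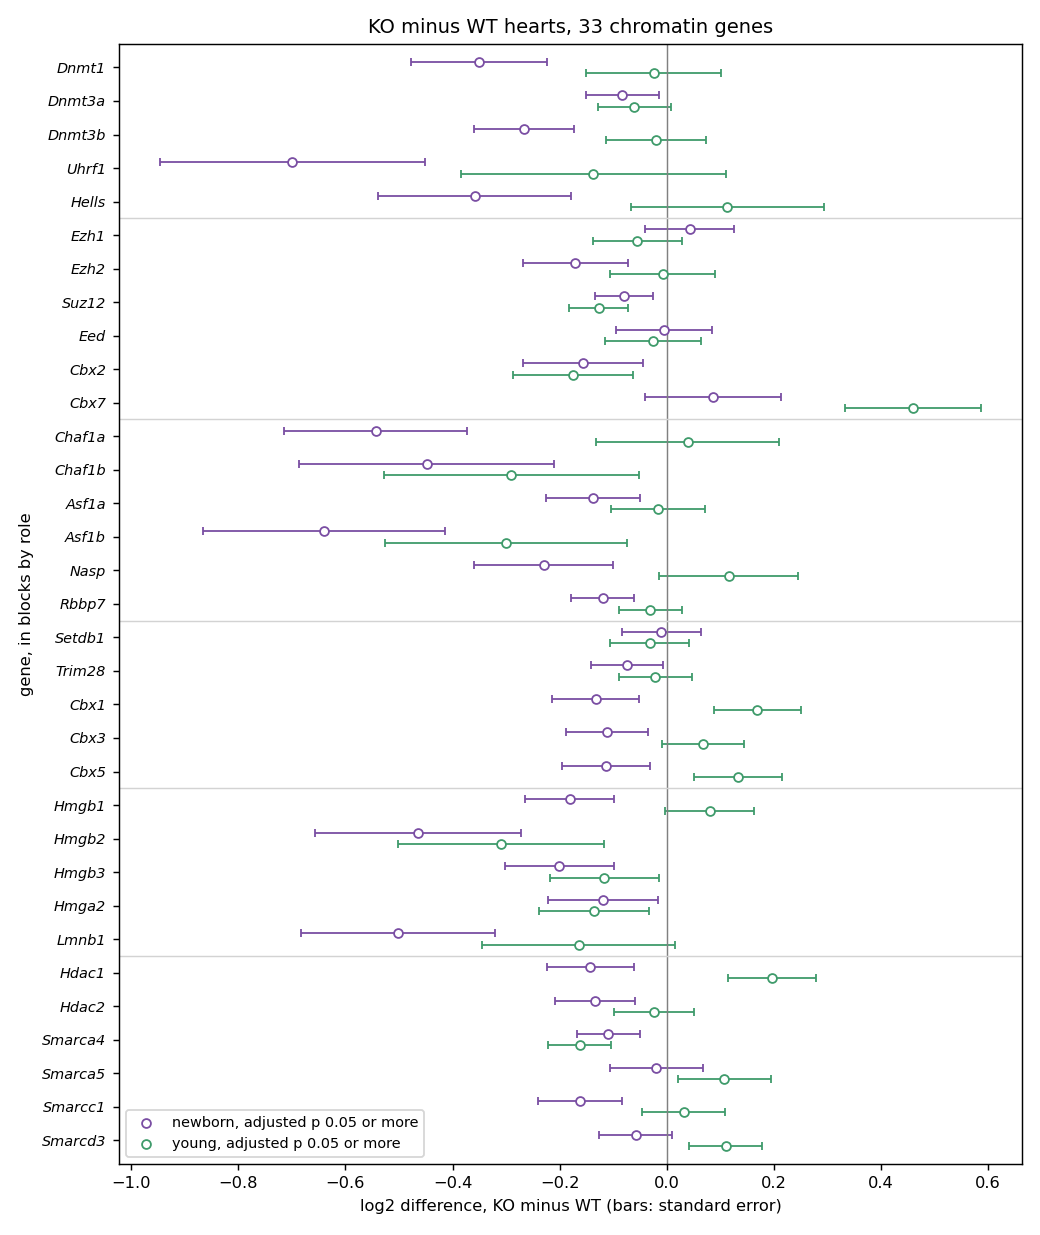
Log2 difference of KO minus WT hearts (horizontal axis) with its standard error for the 33 measured genes (vertical axis, in blocks by role), in newborn and in young hearts; all points are open because none passed an adjusted p under 0.05. In newborn hearts 31 of 33 lie below 0, where 12941 of all 18819 genes tested do. In young hearts 21 of 33 lie below 0, where 7484 of all 18819 do.

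Markers of atrial tissue, of several cell types and of cell division were compared between the young groups too. The paper reports Nppa, on the atrial list, as highly expressed in KO hearts. It also reports Myh11, on the smooth muscle list, as raised in young KO hearts. Which tissue or cells gave the signals of these lists was not tested. The mean log2 signal of 8 atrial markers was 6.59 ± 1.42 (SD, n = 6) in young WT and 8.38 ± 1.35 (SD, n = 6) in young KO hearts, with ranges of 5.44 to 8.91 and 6.03 to 9.71 (exact two-sided permutation test, p = 0.0541, adjusted p = 0.156 over 6). The mean of the 4 smooth muscle markers differed by 1.53 (exact two-sided permutation p = 0.0195), with an adjusted p of 0.343 over 22 tests of 11 marker lists at both ages, the smallest adjusted p of the 22. The median difference was 1.67 for 4 smooth muscle, 0.98 for 6 epicardial and 0.63 for 8 fibroblast markers, of which 0 passed in limma and 3, 4 and 6 had an unadjusted p under 0.05. With the atrial mean as a covariate in the 12 young arrays, Cbx7 was at 0.25 (limma adjusted p = 0.695). The atrial mean itself was higher in the KO group, so this fit cannot separate it from genotype. The cell division markers differed by -0.23 (exact two-sided permutation p = 0.262) and the erythroid markers by -0.31 (exact two-sided permutation p = 0.0779) in young hearts. Of 11 cardiomyocyte markers, Ryr2, the calcium release channel of the sarcoplasmic reticulum, was lower (-0.24, limma adjusted p = 0.0365), and 0 others passed. Outside the 37, Mbd1, a methyl-CpG binding protein gene, was higher in young KO hearts (0.36, limma adjusted p = 0.0148), 1 of 10 other DNA methylation genes. Kmt2d was lower (-0.39, limma adjusted p = 0.00767), 1 of 28 writers and erasers of active marks. The other 6 lists had 0 genes passing.

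Whether the genotype effect differed between the ages was tested directly, as the young KO minus WT difference less the newborn one, which is equally the KO change with age less the WT change. It called 0 of 33 chromatin genes, against 0.0106% of all genes tested. Of the 33 values 26 were above 0, where 13139 of all 18819 genes tested were above 0. The median was 0.16 against 0.084 over all genes. At an unadjusted p under 0.05, 6 were above 0 and 0 below, where 10.9% of all genes tested were above and 2.04% below. These were Hdac1 (0.34), Cbx1 (0.30), Chaf1a (0.58), Hmgb1 (0.26), Cbx5 (0.25) and Cbx7 (0.37), with adjusted p between 0.270 and 0.387 in limma. Without both newborn arrays numbered 4, 15 had an unadjusted p under 0.05, the median was 0.26 and 0 were called. Leaving out 1 array gave 13 without newborn WT 4, 10 without newborn KO 4, 10 without young KO 3 and 3 to 6 otherwise, of which 3 came without newborn WT 3, newborn KO 3, young WT 4, young KO 4 or young KO 6. After median centring it was 2 and after quantile normalization 3. These counts take both directions, and the share of all genes at this level was not counted for these settings.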

How the data were processed

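The authors hybridised ventricle RNA to Affymetrix mouse arrays and deposited RMA log2 signals, 1 column per array, and the submitters' processing notes name oligo 1.22, limma 3.14 and R 2.15. No batch or scan date is given in the sources used here, and sex is not given per array. Arrays were grouped by their labels. Of 35017 probe sets, 21118 named 1 gene symbol, 1735 several and 12164 none; 21085 of the first kind matched a mouse gene by Entrez identifier. The brightest row over all arrays stood for a gene with several rows. Differences came from limma 3.58.1 in R 4.3.3, with 1 mean per group over 24 arrays (20 residual degrees of freedom) and Benjamini-Hochberg adjustment over 18819 genes; every adjusted p in the text is limma's unless another test is named, and a p in parentheses after a difference is its adjusted p. The code was tested on simulated data. The 6 arrays per group limit the precision.

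The 37 genes, the role, pathway and marker lists, the motifs and the tests were chosen with earlier results of these data known. Full values are given for genes called between genotypes, for the 5 smallest p between genotypes at each age, and for the 6 largest falls and up to 4 rises in WT hearts; paralogs are described together, and up to 3 leading genes of each other list. Alternatives were a 30th percentile filter on signal, median centring, quantile normalization, array weights, robust moderation with a trend in the variance, a replicate block, the mean of all rows, the 12 arrays of a comparison, an adjusted p under 0.01, a 1.5-fold minimum, marker covariates, and leaving out arrays. Promoters came from RefSeq, build GRCm38.p6.

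Results of the lists not described elsewhere are these. In WT hearts, 6 of 8 atrial markers fell with age and 1 rose, 1 of 4 smooth muscle markers fell, 1 of 3 lymphocyte markers rose, and 0 of 3 erythroid and 0 of 3 adipocyte markers passed.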

Additional observations from a re-analysis of the deposited data

Results flagged for a closer look

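In 132 sets of 6 values tested (33 genes in 4 groups), 19 held a value apart from the other 5. Its gap to the nearest value was past Dixon's critical value for 6 samples. In independent sets about 1 in 20 would do so by chance. The 33 genes were read on the same arrays, so the 19 of 132 cannot be set against that rate. The newborn WT array numbered 4 stood apart for Ezh2 (9.01, low against 9.25 to 9.34), Asf1a (6.78, low against 7.02 to 7.06), Cbx1 (7.57, low against 7.93 to 8.12), Cbx3 (8.82, low against 9.13 to 9.16), Hmgb2 (6.87, low against 7.61 to 8.04), Hdac2 (9.13, low against 9.35 to 9.46) and Smarcd3 (7.90, low against 8.13 to 8.20). The newborn KO array numbered 4 stood apart for Chaf1a (6.10, high against 5.15 to 5.35), Cbx5 (9.67, high against 9.31 to 9.41) and Smarcc1 (8.81, high against 8.47 to 8.56). The young KO array numbered 3 stood apart for Dnmt1 (6.77, low against 7.10 to 7.18) and Lmnb1 (4.65, low against 5.48 to 5.82). The young WT array numbered 2 stood apart for Asf1a (6.27, low against 6.67 to 6.90) and Hmgb3 (7.57, low against 7.85 to 7.99). The newborn KO array numbered 5 stood apart for Setdb1 (6.997, low against 7.10 to 7.16). The newborn KO array numbered 6 stood apart for Trim28 (9.14, low against 9.31 to 9.37). The newborn WT array numbered 3 stood apart for Hmga2 (5.76, high against 5.23 to 5.41). The young WT array numbered 4 stood apart for Cbx7 (5.66, low against 6.37 to 6.76). The young WT array numbered 5 stood apart for Cbx2 (5.42, low against 5.82 to 6.02). Of the 19 values, 7 were in the newborn WT array numbered 4 and 3 in the newborn KO array numbered 4. No chromatin gene had a genotype effect whose difference between the ages passed the test.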

How the results depend on the processing

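Without both newborn arrays numbered 4, 8 chromatin genes were called in newborn hearts (0 with all arrays), as were 482 genes of all in newborn hearts (0) and 79 for the difference of the genotype effects (2). Quantile normalization called 1 chromatin gene in young hearts (0), where it called 114 of all 18819 genes tested higher and 161 lower. It called 4 genes of all for the difference of the effects. Array weights called 31 genes of all in newborn hearts and 15 for the difference of the effects. Over all genes in young hearts (192), the count was 19 with only the 12 young arrays, 40 at an adjusted p under 0.01, 58 at a 1.5-fold minimum and 8 with the atrial covariate. For the difference of the effects it was 7 with the signal filter, 9 with the variance trend, and 1 each with median centring, the replicate block and an adjusted p under 0.01. A 1.5-fold minimum left 3567 genes between ages in WT (8854) and 3235 in KO hearts (11110).

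Leaving out 1 array at a time gave 0 to 0 chromatin genes and 0 to 73 genes of all in newborn hearts, 0 to 2 and 108 to 806 in young hearts, 0 to 0 and 1 to 24 for the difference of the effects, 26 to 29 and 8379 to 9042 between ages in WT, and 24 to 26 and 10315 to 11209 in KO hearts. In newborn hearts the counts of all genes were 73 without WT 4 and 49 without KO 4. In young hearts they were 806 without KO 3 and 784 without WT 2, with 2 and 1 chromatin genes, and 108, 112, 125 and 111 without WT 1, WT 4, WT 6 and KO 2. For the difference of the effects they were 24 without young KO 3, 17 without young WT 2, 10 without young WT 5, 6 without young KO 2, 4 without newborn WT 5, and 1 without newborn WT 1, 2 or 3, newborn KO 4 or 5, young WT 4 or 6, or young KO 1 or 6. Other alternatives gave 19 to 29 chromatin genes and 3567 to 12831 genes of all between ages in WT. In KO hearts they gave 18 to 27 and 3235 to 13040.

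Some differences changed sign, and none of these passed with the values as deposited. With the cell division covariate, newborn KO minus WT changed sign for 17 genes. Among the genes with an unadjusted p under 0.05 in limma on all arrays, it turned to 0.012 for Dnmt1, 0.015 for Uhrf1, 0.046 for Asf1b and 0.077 for Hmgb2. Median centring turned the WT age difference to 0.061 for Dnmt3b, 0.10 for Hmgb3, 0.24 for Smarca4 and 0.22 for Smarca5, and the KO one to 0.086 for Cbx1, 0.10 for Hmgb3 and 0.098 for Smarca4. Smarca5 in WT also turned to 0.11 (quantile normalization) and 0.0086 (array weights), and Hmgb3 in KO to 0.0056 (quantile normalization). Smarcd3 in WT was -0.015 without both arrays numbered 4. With 1 array left out, WT values turned sign for Smarca4 without newborn WT 3 (range -0.053 to 0.0033), for Smarca5 without young WT 2 (-0.091 to 0.019) and for Smarcd3 without newborn WT 4 (-0.015 to 0.044). Over all 132 differences of the 33 genes between genotypes and ages, 93 of 4686 alternative values changed sign, 31 lost and 28 gained a call. The cause was not tested.

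The labels do not say that replicate numbers pair the arrays. Same-number correlations ran from -0.44 to 0.64. Of 6 pairs, 5 were over 0.1 between newborn KO and young WT and 3 between young WT and young KO. The own number was best for 4 of 6 in both. In the other combinations 1 or 2 of 6 pairs were over 0.1, and the own number was best for 0 to 2. What arrays of the same number may share was not tested. As no combination had all 6 over 0.1, the numbers were not taken to pair the arrays, and the replicate block left the chromatin gene counts at 0, 0, 0, 27 and 25. The number of arrays sets another limit, since 6 per group leave standard errors of 0.055 to 0.25 for these genes.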
